A study of Mus musculus with 6 samples.

Results

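The 10 genes described here, Tal1, Lyl1, Lmo2, Gata2, Runx1, Fli1, Erg, Myb, Ikzf1 and Gfi1, encode transcription factors of blood stem and progenitor cells. They were taken by symbol from the 30445 genes of a mouse RNA-seq count table, and all 10 had a row. The rule that took them used no measured value, although the set was proposed with earlier results of these data known. Libraries were made from induced macrophages (iMac), from a cell population named myeloid-like cell complex (MCC) and from mouse embryonic fibroblasts (MEF), 2 for each group. Every library carries the genotype label wild type. In its title the series credits c-Myc alone with this reprogramming. The sources used here do not say how iMac and MCC were made, how they relate, or whether they are 1 clone or a mixture.

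Blood formation depends on a small set of factors that bind the same enhancers. Tal1 or Lyl1, paired with an E protein, and a GATA factor are bridged by Lmo2 and Ldb1, and Runx1, Fli1 and Erg bind beside them. In stem and progenitor cells all of these factors are active together, whereas mature blood cells keep only some of them. Macrophages use Runx1 and Fli1 together with PU.1, and Myb, Gata2 and Gfi1 are switched down as mouse progenitors become macrophages.

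The libraries held between 34389817 and 39174367 counts. Of all genes, 18613 passed a filter on low counts and were tested, among them 8 of the 10 factors, while Erg and Gfi1 had too few counts. All 15 macrophage markers in a chosen list were higher in iMac than in MEF and in MCC than in MEF. The 14 fibroblast markers summed to 64.95 and 69.17 CPM (counts per 1000000, scaled between libraries) in iMac, to 2679 and 598.5 CPM in MCC and to 39120 and 16660 CPM in MEF, so that the MCC libraries differed from each other in this sum, and so did the MEF libraries. The labels do not say whether libraries of a group came from separate cultures, so p-values measure only the spread between these libraries, which may be technical. A change here is a call of edgeR's quasi-likelihood test at a Benjamini-Hochberg adjusted p of at most 0.05 over all genes tested, and values are given as mean ± SD over the 2 libraries of a group.

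The bases just upstream of the RefSeq starts (GRCm38.p6, the assembly also called mm10) are shown for 3 of the factors that rose, Tal1, Lyl1 and Ikzf1, and for Gata2, which fell, because the ETS and GATA families whose members are measured here bind short cores that can be looked for in them. Each line gives 250 bases, 5′ to 3′ on the strand of the gene, and capitals mark the cores GGAA or TTCC (ETS) and GATA or TATC (GATA). All 4 genes lie on the plus strand. The windows are chr4:115056176-115056425 for Tal1, chr8:84701207-84701456 for Lyl1, chr11:11685675-11685924 for Ikzf1 and chr6:88193641-88193890 for Gata2.
Tal1: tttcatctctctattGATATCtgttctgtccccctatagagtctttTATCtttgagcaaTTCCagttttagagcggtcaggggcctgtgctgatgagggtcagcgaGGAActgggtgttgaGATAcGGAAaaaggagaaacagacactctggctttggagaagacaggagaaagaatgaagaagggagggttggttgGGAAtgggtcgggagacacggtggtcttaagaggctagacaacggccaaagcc
Lyl1: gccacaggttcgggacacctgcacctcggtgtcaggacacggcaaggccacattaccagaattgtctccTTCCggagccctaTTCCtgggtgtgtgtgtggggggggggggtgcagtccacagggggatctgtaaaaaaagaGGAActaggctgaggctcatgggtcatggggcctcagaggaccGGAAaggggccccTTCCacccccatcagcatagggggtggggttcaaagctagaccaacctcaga
Ikzf1: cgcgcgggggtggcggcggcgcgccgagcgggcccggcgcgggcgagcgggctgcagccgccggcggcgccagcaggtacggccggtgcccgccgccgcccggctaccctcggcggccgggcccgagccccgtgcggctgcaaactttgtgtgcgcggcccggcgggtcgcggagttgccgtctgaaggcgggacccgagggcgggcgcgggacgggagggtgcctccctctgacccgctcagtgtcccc
Gata2: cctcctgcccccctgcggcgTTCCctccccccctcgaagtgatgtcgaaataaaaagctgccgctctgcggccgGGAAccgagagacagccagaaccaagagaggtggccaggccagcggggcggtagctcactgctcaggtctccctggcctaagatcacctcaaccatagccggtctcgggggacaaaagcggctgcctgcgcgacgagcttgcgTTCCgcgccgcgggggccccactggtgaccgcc
The Tal1 window held 4 ETS cores and 4 GATA cores, of which a pair overlap in GATATC. The Lyl1 window held 5 ETS cores and no GATA core, the Gata2 window 3 ETS cores and no GATA core, and the Ikzf1 window, at 82.0% G and C, neither core. Windows at second starts of 3 of these genes held other numbers, 3 ETS cores and no GATA core for Tal1, 6 ETS cores for Ikzf1 and 1 ETS core for Gata2. The second start of Ikzf1 lies 3732 bases, and that of Gata2 330 bases, from the nearest start of the gene in GENCODE. All 250 bases of that Gata2 window lie in annotated exons. Among 32851 windows of the same length upstream of mouse gene starts, 93.4% held an ETS core on either strand, with a median of 3, and 53.6% held a GATA core, with a median of 1. These matches describe letters in the windows, and the cores were chosen after the expression values were known.

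Tal1, Lyl1, Lmo2, Runx1, Fli1 and Ikzf1 were higher in iMac than in MEF, Gata2 and Myb were lower, and the same 6 were higher in MCC than in MEF. Thus 6 of 10 were called higher and 2 lower for iMac against MEF, where 57.6% of all genes tested were called, 25.1% higher and 32.4% lower. For MCC against MEF 6 of 10 were called higher and none lower, beside 53.0% of all genes called, 23.4% higher and 29.6% lower. These comparisons share the MEF libraries. The median log2 fold change over the 8 tested factors was 6.79 for iMac against MEF and 5.76 for MCC against MEF, beside -0.064 and -0.048 over all genes tested. The 6 that rose kept their calls under every alternative scaling, tool and filter and with each library left out.

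**Figure D1:**
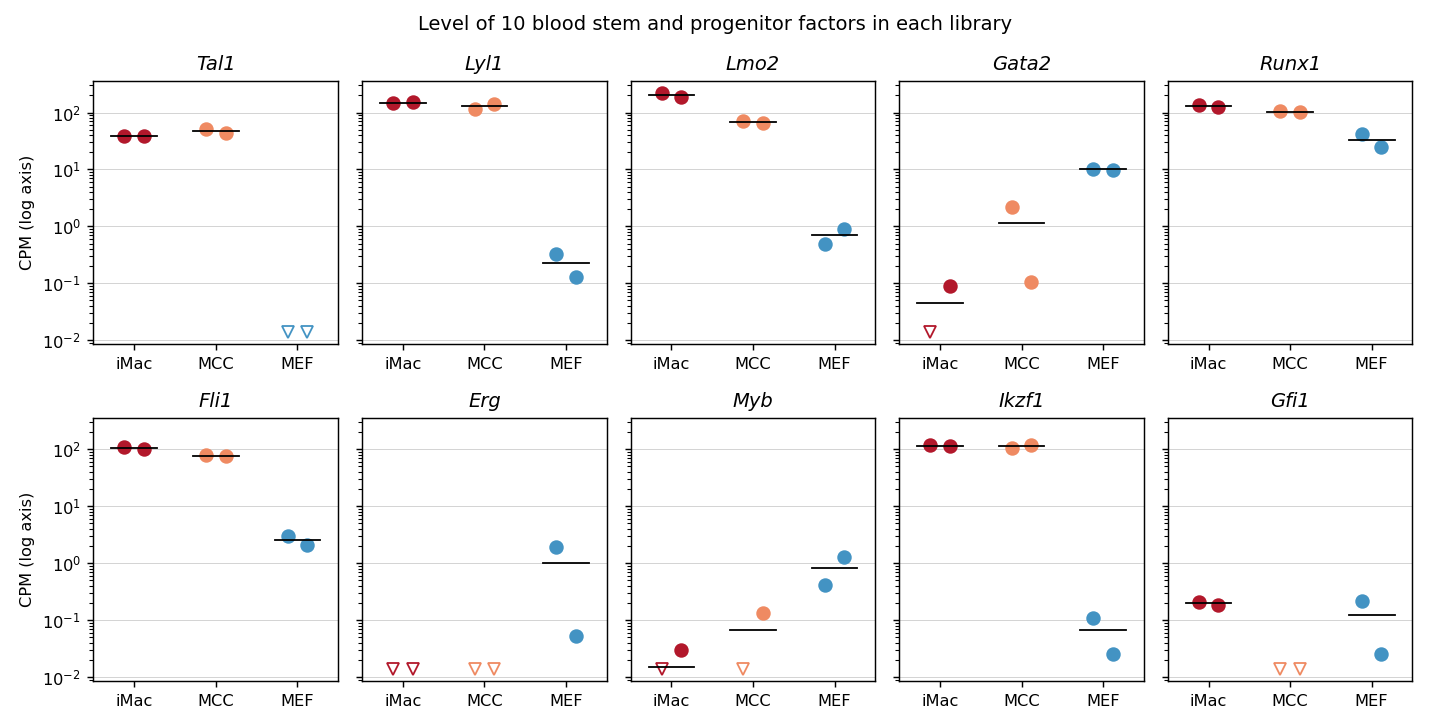
Level of each of the 10 factors in each library, in CPM on a log axis, with iMac, MCC and MEF from left to right. Points are libraries, lines are group means and open triangles are libraries with no counts, drawn below the value of 1 count. Tal1, Lyl1, Lmo2, Fli1 and Ikzf1 sit above 38 CPM in iMac and MCC and below 3 CPM in MEF, while Gata2 is highest in MEF.

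Tal1, also called SCL, is the basic helix-loop-helix factor without which no blood forms in the mouse. It lies at chr4:115056426-115071755 and had 1316 and 1271 counts in iMac, 1990 and 1601 counts in MCC, and 0 in both MEF libraries. That was 38.8 ± 0.689 CPM in iMac and 47.3 ± 6.31 CPM in MCC. Set against a floor of 3 counts over the MEF group, Tal1 was at least 979.5-fold higher in iMac and at least 1195-fold higher in MCC (edgeR, Benjamini-Hochberg adjusted p = 0.000161 and 0.000181). Both MCC libraries lay above both iMac libraries, but that difference, -0.29 ± 0.15 (SE) on the log2 scale, was not called (edgeR, Benjamini-Hochberg adjusted p = 0.385).

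Lyl1 is the closest relative of Tal1 and can stand in for it in adult stem cells of the mouse. It lies at chr8:84701457-84704715 and had 146 and 153 CPM in iMac, 115 and 141 CPM in MCC, and 0.325 and 0.129 CPM in MEF, where the counts were 12 and 5. No MEF library came near the other groups, and both iMac libraries were above both MCC libraries. Lyl1 was higher in iMac than in MEF by 9.35 ± 0.38 (SE) and in MCC than in MEF by 9.13 ± 0.38 on the log2 scale (edgeR, Benjamini-Hochberg adjusted p = 0.000158 and 0.000191). Per kilobase of exons, the level of Tal1 was 0.111 and 0.103 times that of Lyl1 in iMac and 0.185 and 0.125 times in MCC. Lyl1 made up 89.8% and 90.6% of the summed level per kilobase of Tal1, Tal2 and Lyl1 in iMac and 84.2% and 88.9% in MCC. Of the 1800 exonic bases of Lyl1, 4 are shared with Nfix on the other strand.

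Lmo2 encodes the LIM-only protein that bridges the bHLH and GATA factors and does not bind DNA itself. At chr2:103957986-103981878, it had 220.3 and 189 CPM in iMac, 71.1 and 64.9 CPM in MCC, and 0.488 and 0.902 CPM in MEF. The 3 groups did not overlap, with iMac highest and MEF lowest. Relative to MEF, Lmo2 was higher by 8.19 ± 0.33 (SE) in iMac and by 6.60 ± 0.31 in MCC on the log2 scale (edgeR, Benjamini-Hochberg adjusted p = 0.000158 and 0.000286). Its level per kilobase was 1.26 and 1.03 times that of Lyl1 in iMac and 0.513 and 0.382 times in MCC.

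Gata2, the GATA factor of stem, progenitor and mast cells, went the other way. At chr6:88193891-88207032, it had 0 and 3 counts in iMac, 83 and 4 counts in MCC, and 379 and 383 counts in MEF. The MEF libraries were close to each other at 10.3 and 9.87 CPM, whereas the MCC libraries differed 20.2-fold. Gata2 was 224-fold lower in iMac than in MEF, with a 95% counting interval of 76.2 to 1087, which covers counting error only (edgeR, Benjamini-Hochberg adjusted p = 0.0158). That call was lost without the second MEF library, the first iMac library or the second iMac library (edgeR, Benjamini-Hochberg adjusted p = 0.0515, 0.0929 and 0.0712). For MCC against MEF the log2 fold change of -3.15 ± 1.25 (SE) was not called (edgeR, Benjamini-Hochberg adjusted p = 0.0856). It was -6.50 without the first MCC library and -2.10 without the second, and was called in both cases (edgeR, Benjamini-Hochberg adjusted p = 0.00476 and 0.0464). It was also called by limma-voom, which called 56.5% of all genes in this comparison (Benjamini-Hochberg adjusted p = 0.0173). The MCC library with more Gata2, at 21.4% of the MEF mean against 1.06% in the other, was also the one with more fibroblast RNA, where the 14 markers summed to 9.61% and 2.15% of the MEF mean. Taken singly, these markers had a median of 4.77% and a maximum of 13.57% of the MEF mean in the first MCC library, both below the share of Gata2. In the second MCC library the median was 0.465% and the maximum 4.50%. The part of fibroblast RNA in the Gata2 level was not tested. In bulk RNA, fewer cells that express a gene and less of its RNA per cell cannot be told apart.

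Runx1 encodes the DNA-binding subunit of core-binding factor and is needed for blood stem cells to arise from endothelium in the mouse embryo. It was the factor with the highest level in MEF. At chr16:92601466-92826149 on the minus strand, it had 134 and 124 CPM in iMac, 104 and 100.4 CPM in MCC, and 42.1 and 24.9 CPM in MEF. Every iMac library was above every MCC library and every MCC library above MEF, although the MEF libraries differed 1.69-fold. The rise was 1.95 ± 0.26 (SE) for iMac and 1.61 ± 0.26 for MCC over MEF on the log2 scale (edgeR, Benjamini-Hochberg adjusted p = 0.00349 and 0.00678). Of its exonic bases, 0.881% are shared with Gm26626 on the other strand.

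Fli1 is an ETS factor of stem cells, megakaryocytes, endothelium and macrophages. It lies at chr9:32422204-32542861 on the minus strand, with 111 and 102 CPM in iMac, 78.2 and 75.0 CPM in MCC, and 2.98 and 2.11 CPM in MEF. The groups did not overlap. Fli1 was higher than in MEF by 5.38 ± 0.20 (SE) in iMac and by 4.91 ± 0.20 in MCC on the log2 scale (edgeR, Benjamini-Hochberg adjusted p = 0.000142 and 0.000191). Within a library, Fli1 stood in a narrow ratio to Runx1 per kilobase, 2.84 and 2.85 in iMac and 2.58 and 2.57 in MCC, against 0.244 and 0.292 in MEF.

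Erg, the close relative of Fli1 that sustains stem cell self-renewal, lies at chr16:95359169-95586593 on the minus strand. It had no counts in iMac or in MCC, against 71 and 2 counts in MEF. Nearly all of the Erg signal in MEF came from the first library, and against the floor of 3 counts Erg was at least 21.4-fold lower in iMac and at least 24.4-fold lower in MCC. Erg did not pass the filter, and without it it was not called for iMac or for MCC against MEF (edgeR, Benjamini-Hochberg adjusted p = 0.0963 and 0.0935). Of the alternatives that tested it, the fit without the second MEF library called it in both comparisons (edgeR, Benjamini-Hochberg adjusted p = 0.0423 and 0.0461). Of the 50-base stretches in its transcripts, none occurs in another gene, Fli1 included.

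Myb drives the growth of progenitors and is dispensable for the yolk-sac macrophages of the mouse. At chr10:21124935-21160984 on the minus strand, it had 0 and 1 counts in iMac, 0 and 5 counts in MCC, and 15 and 49 counts in MEF. It was low everywhere, with the second MEF library 3.10-fold above the first. Myb was 56.3-fold lower in iMac than in MEF, with a 95% counting interval of 9.76 to 2259.8 (edgeR, Benjamini-Hochberg adjusted p = 0.0300). The call was lost without the second MEF library, the first iMac library or the second iMac library (edgeR, Benjamini-Hochberg adjusted p = 0.125, 0.151 and 0.109). For MCC against MEF its log2 fold change of -3.59 ± 1.22 (SE) was not called (edgeR, Benjamini-Hochberg adjusted p = 0.0560). Without the second MCC library, the one with 5 counts, it was -7.90 and called (edgeR, Benjamini-Hochberg adjusted p = 0.0406). An antisense gene, Gm26577, shares 6.26% of the exonic bases of Myb, and with the strand setting not given, its reads cannot be told apart from those of Myb.

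Ikzf1 encodes Ikaros, a zinc-finger factor best known for its role in lymphocytes and present across white blood cells. At chr11:11685003-11772926, it had 119 and 113 CPM in iMac, 105 and 119 CPM in MCC, and 0.108 and 0.0258 CPM in MEF, where the counts were 4 and 1. The iMac and MCC libraries overlapped, and both groups stood far above MEF. It was higher than in MEF by 10.71 ± 0.37 (SE) in iMac on the log2 scale (edgeR, Benjamini-Hochberg adjusted p = 0.000114) and by 10.66 ± 0.37 in MCC (edgeR, Benjamini-Hochberg adjusted p = 0.000132).

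Gfi1, a repressor of stem cells, neutrophils and lymphocytes, lies at chr5:107716657-107726036 on the minus strand. It had 7 and 6 counts in iMac, none in MCC, and 8 and 1 counts in MEF. At these counts the iMac and MEF libraries overlapped, and the ratio of iMac to MEF was 1.64, with a 95% counting interval of 0.649 to 4.35. Set against the floor of 3 counts over MCC, Gfi1 was 4.93-fold higher in iMac than in MCC and 3.005-fold lower in MCC than in MEF. These ratios leave out the counting error of the few iMac and MEF counts, so they are not firm bounds. The second MEF library, with 1 count, lay under that floor by itself. It did not pass the filter, and without the filter it was not called for iMac against MEF, MCC against MEF or iMac against MCC (edgeR, Benjamini-Hochberg adjusted p = 0.693, 0.120 and 0.318). Another gene on the other strand, A430072P03Rik, shares 3.17% of its exonic bases, and with the strand setting not given its reads cannot be told apart from those of Gfi1.

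**Figure D2:**
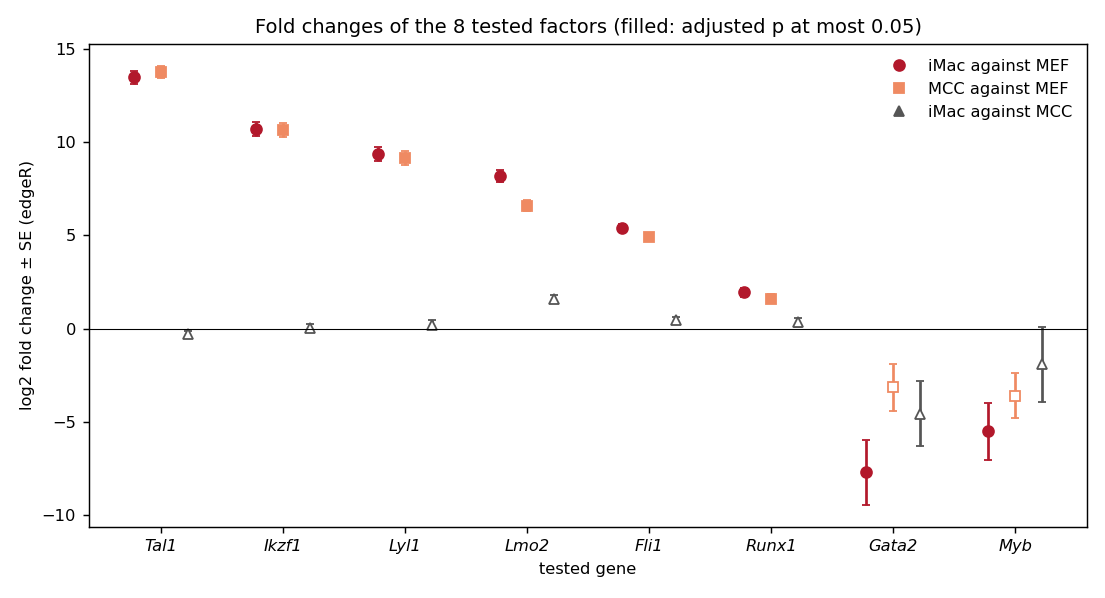
Log2 fold change of each tested factor for iMac against MEF, MCC against MEF and iMac against MCC, with bars for the standard error. Filled symbols passed the adjusted threshold and open ones did not; those of Tal1 against MEF depend on the prior count, because MEF had no Tal1 counts. Lyl1, Lmo2, Fli1 and Ikzf1 lie between 4.91 and 10.71 over MEF, and no symbol for iMac against MCC is filled.

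None of the 10 factors was called between iMac and MCC, where edgeR called 0.0215% of all genes tested. At an unadjusted p under 0.05 the edgeR test had 3 of them, Lmo2, Fli1 and Gata2. Lmo2 was 3.01-fold higher in iMac, at 1.59 ± 0.23 (SE) on the log2 scale (edgeR, Benjamini-Hochberg adjusted p = 0.100). DESeq2 and limma-voom called it (Benjamini-Hochberg adjusted p = 3.45e-16 and 0.0305), and so did edgeR fitted on these 4 libraries alone (Benjamini-Hochberg adjusted p = 0.0118). Fli1 was higher in iMac by 0.48 ± 0.17 (edgeR, Benjamini-Hochberg adjusted p = 0.245) and was called by DESeq2 and by the fit on these libraries alone (Benjamini-Hochberg adjusted p = 0.0247 and 0.0350). Gata2, at -4.55 ± 1.73 (edgeR, Benjamini-Hochberg adjusted p = 0.267), was called lower in iMac by DESeq2 (Benjamini-Hochberg adjusted p = 0.0389) and by edgeR without the second MCC library (Benjamini-Hochberg adjusted p = 0.0223). DESeq2 called 14.6% of all genes in this comparison, limma-voom 0.784% and the fit on these libraries alone 8.6%. The libraries of iMac and MCC did not overlap for 7 of the 10 factors, as for 55.6% of all genes tested. Against MEF they did not overlap for 9 of 10 in iMac and 10 of 10 in MCC, beside 82.6% and 80.5% of all genes tested.

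Levels can be set beside each other between genes only per length, as CPM per kilobase of exons. In iMac the order of mean levels per kilobase was Lmo2 at 94.4, Lyl1 at 82.9, Fli1 at 30.5, Ikzf1 at 20.1, Runx1 at 10.7 and Tal1 at 8.86, and the libraries of neighbours in this order did not overlap. In MCC Lyl1 led at 71.2, followed by Lmo2 at 31.4, Fli1 at 21.97, Ikzf1 at 19.4, Tal1 at 10.8 and Runx1 at 8.52, again without overlap between neighbours. Lmo2 and Lyl1, and Runx1 and Tal1, thus changed places between iMac and MCC, although the main edgeR test called none of them between these groups. Runx1 and Tal1 were not called under any alternative either. The order between genes also rests on exon lengths from an annotation that may differ from the one used for the counts. In MEF the order began with Runx1 at 2.79, Gata2 at 1.87 and Fli1 at 0.731, while Lmo2, Erg, Lyl1, Myb, Gfi1 and Ikzf1 followed with libraries that overlapped from each to the next.

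RNA for the partner proteins with which these factors form complexes was also found in MEF. Ldb1, which ties LIM complexes together, stood at 217 ± 6.37 CPM in iMac, 178 ± 9.24 CPM in MCC and 166 ± 2.02 CPM in MEF. It was higher in iMac than in MEF by 0.39 ± 0.09 (SE) on the log2 scale (edgeR, Benjamini-Hochberg adjusted p = 0.0149), and the difference of 0.10 ± 0.09 between MCC and MEF was not called (edgeR, Benjamini-Hochberg adjusted p = 0.350). Cbfb, the partner of Runx1, had 103 ± 1.84 CPM in iMac, 119.9 ± 8.43 CPM in MCC and 105.8 ± 0.332 CPM in MEF and was not called against MEF. The E protein Tcf12, with which Tal1 pairs, was lower than in MEF, with log2 fold changes of -1.64 ± 0.15 (SE) in iMac and -1.66 ± 0.15 in MCC. The other listed E proteins changed less in iMac against MEF. Tcf3 was called lower at -0.64 ± 0.10, and Tcf4, at 0.09 ± 0.23, was not called (edgeR, Benjamini-Hochberg adjusted p = 0.764). Cbfa2t3, the corepressor ETO2 of the Tal1 complex, was higher by 3.34 ± 0.65 in iMac and 3.41 ± 0.65 in MCC, and Runx1t1, its relative, had no counts in iMac, 0.130 ± 0.184 CPM in MCC and 10.9 ± 4.93 CPM in MEF. Of 18 partner genes, 5 were higher and 8 lower in iMac than in MEF, and 4 were higher and 9 lower in MCC than in MEF. Over all genes tested, 25.1% were higher and 32.4% lower in iMac, and 23.4% higher and 29.6% lower in MCC. The partners' median log2 fold change was -0.14 for iMac and -0.39 for MCC.

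Most of the tested relatives of the factors were lower than in MEF. Of 22 paralogs with a row, 16 were tested, and 3 were called higher and 10 lower both for iMac and for MCC against MEF. Their median log2 fold changes were -2.73 and -1.54. Among all genes tested, 25.1% were higher and 32.4% lower in iMac, and 23.4% higher and 29.6% lower in MCC. The summed level per kilobase of the RUNX genes was 13.7 and 13.1 in iMac, 15.1 and 13.96 in MCC, and 7.71 and 6.45 in MEF. Runx1 made up 81.4% and 78.4% of that sum in iMac, 57.4% and 59.8% in MCC, and 45.4% and 32.2% in MEF. The rest was mainly Runx3, a factor of leukocytes, in MCC, with 30.8% and 31.6%, and Runx2, the bone factor, in MEF, with 52.2% and 66.2%. Runx3 was higher than in MEF by 3.27 ± 0.32 (SE) in iMac and by 4.95 ± 0.34 in MCC on the log2 scale (edgeR, Benjamini-Hochberg adjusted p = 0.00161 and 0.000829). For iMac against MCC the log2 fold change of Runx3 was -1.68 ± 0.29, which was not called (edgeR, Benjamini-Hochberg adjusted p = 0.120). In the LIM-only family, Lmo2 held 94.7% and 94.75% of the summed level per kilobase in iMac and 84.6% and 80.55% in MCC, against 1.10% and 2.22% in MEF, where Lmo4 held most. Ikzf1 likewise held 98.35% and 98.5% of its family in iMac, 96.7% and 97.95% in MCC, and 0.945% and 0.238% in MEF. In the MYB family, in which Myb itself had few counts, the cell-cycle gene Mybl2 made up 94.1% and 91.9% in iMac, 91.3% and 93.1% in MCC, and 26.6% and 28.05% in MEF.

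**Figure D3:**
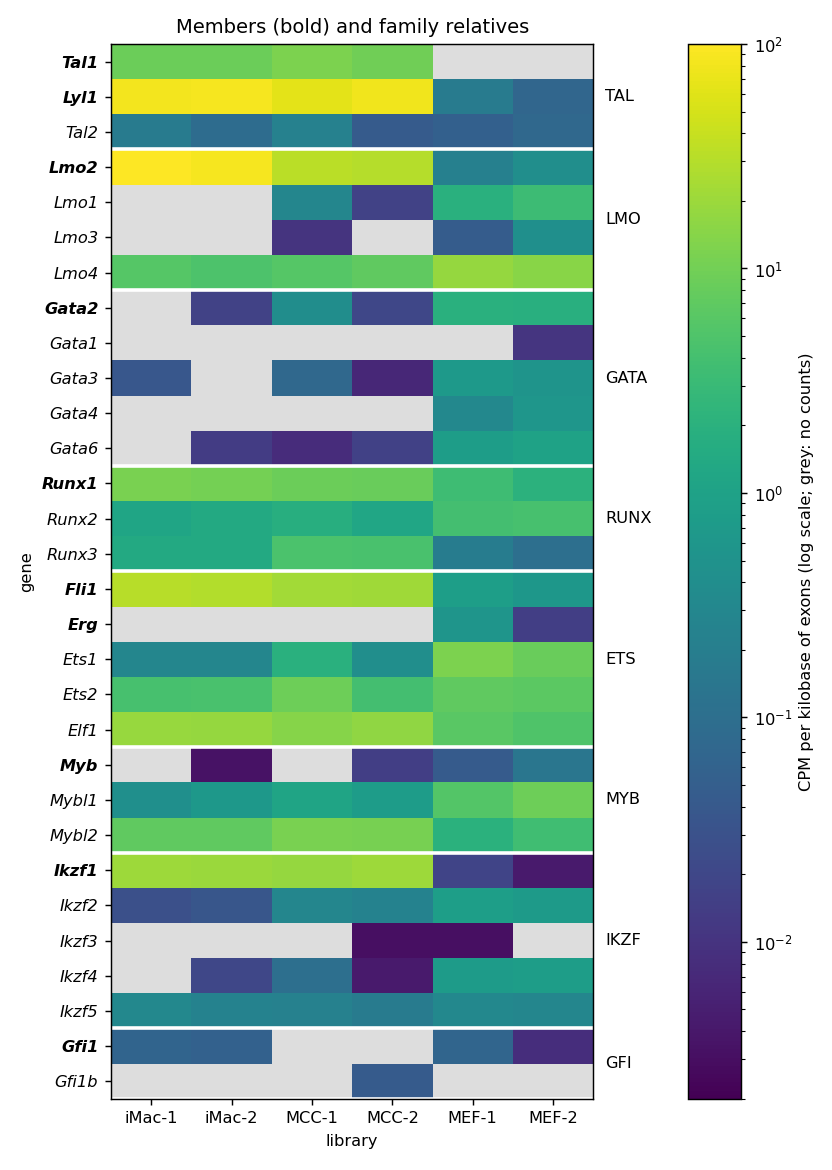
Heatmap of the level of each family member, per kilobase of exons, in each library, with the 10 factors in bold and grey for no counts. The GATA family is low in iMac and MCC, where its sum is at most 0.486 CPM per kilobase, and reaches 3.73 and 4.0 in MEF.

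The GATA family as a whole was low in iMac and MCC. It summed to 0.0375 and 0.0307 CPM per kilobase in iMac, 0.486 and 0.0430 in MCC, and 3.73 and 4.0 in MEF. Gata1, the factor of red cells and megakaryocytes, had no counts in iMac or MCC and 1 count in all in MEF. Gata3, Gata4 and Gata6, factors of other tissues, were lower in iMac and MCC than in MEF.

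Most further factors of stem cells were lower than in MEF, as Gata2 was in iMac. Of 15 such genes with a row, 13 were tested. In iMac 12 were lower and 1 higher than in MEF, with a median log2 fold change of -4.99. The counts were the same for MCC, at -3.43. The shares over all genes tested were 32.4% lower and 25.1% higher in iMac, and 29.6% lower and 23.4% higher in MCC. Mecom, which maintains stem cell quiescence, stood at 0.0149 ± 0.0211 CPM in iMac, 0.719 ± 0.601 CPM in MCC and 21.4 ± 8.07 CPM in MEF. Zfp521 had 0.0302 ± 0.0426 CPM in iMac, 0.729 ± 0.993 CPM in MCC and 51.1 ± 14.4 CPM in MEF. Prdm16 and Hlf had no counts in iMac. Hhex, a homeobox gene, was the gene that was higher, at 6.04 ± 0.23 (SE) for iMac and 5.82 ± 0.23 for MCC on the log2 scale. Among the 18 surface genes of stem and progenitor cells, 15 were tested, and 5 were higher and 9 lower in iMac than in MEF. The higher ones were Cd48, Cd93, Cd27, Spn and Ptprc. Cd93 had 766 ± 72.5 CPM in iMac, 163 ± 59.6 CPM in MCC and 2.30 ± 1.07 CPM in MEF. Cd48 had 34.9 ± 7.63 CPM in iMac and 17.3 ± 0.978 CPM in MCC, and no counts in MEF. Ptprc, the pan-leukocyte CD45, reached 285 ± 5.24 CPM in iMac and 233 ± 20.5 CPM in MCC against 0.148 ± 0.173 CPM in MEF. Cd34 was at 0.0302 ± 0.0426 CPM in iMac and 0.424 ± 0.195 CPM in MCC against 106.7 ± 86.3 CPM in MEF, and Kit, the stem cell factor receptor, had no counts in iMac.

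**Figure D4:**
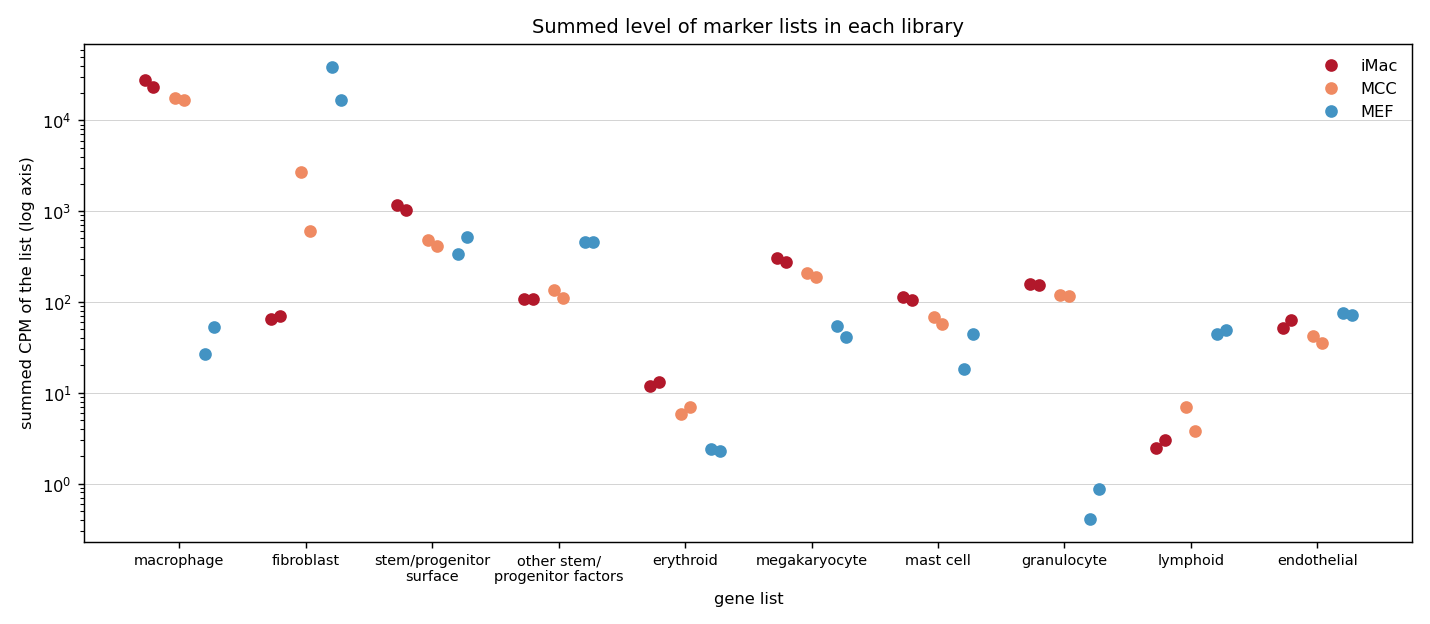
Summed CPM of each marker list in each library on a log axis, with iMac, MCC and MEF in that order. Macrophage markers reach 27820 and 23570 CPM in iMac and 17530 and 16620 CPM in MCC, against 26.51 and 52.99 CPM in MEF, and fibroblast markers run the other way.

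Markers of other blood lineages that use these factors differed from list to list. Of 9 erythroid genes with a row, 8 were below 1 CPM in iMac and in MCC, and Hba-a1, Rhag and Gata1 were among those at 0 in both. The markers of lymphocytes, the cells in which Ikzf1 is best known, summed to 2.449 and 3.045 CPM in iMac, 6.996 and 3.799 CPM in MCC, and 44.53 and 48.51 CPM in MEF. Most of the MEF sum was Ebf1, at 36.3 and 29.5 CPM, and Tcf7, at 6.97 and 16.8 CPM. Cd3d, Cd3g, Cd8a, Cd79b and Ms4a1 had no counts in MEF. Megakaryocyte markers summed to 302.6 and 278.4 CPM in iMac, 208.4 and 190.0 CPM in MCC, and 53.97 and 41.35 CPM in MEF. Most of the sum in iMac and MCC was Pf4, a platelet chemokine, and most in MEF was Itgb3, at 47.7 and 35.8 CPM. Pf4 and Vwf were called higher than in MEF in both groups, while Itga2b was called lower in both and Itgb3 in iMac. Granulocyte markers summed to 155.9 and 152.4 CPM in iMac, 118.3 and 115.4 CPM in MCC, and 0.4066 and 0.8759 CPM in MEF. Most of the sum was Csf3r, at 109 and 111 CPM in iMac and 60.9 and 76.0 CPM in MCC. Csf3r, Mmp8 and Prtn3 were called higher than in MEF in both groups. Of 13 granulocyte genes with a row, 10 were below 1 CPM in iMac and in MCC, with Mpo and Ly6g at 0 in both. Mast cell markers summed to 113.7 and 105.5 CPM in iMac, 68.92 and 57.73 CPM in MCC, and 18.38 and 44.57 CPM in MEF, and all of them but Mitf, a factor also found in macrophages, were below 1 CPM in iMac and MCC. The part of such cells in the levels of the factors was not tested. The endothelial list, whose cells also express Tal1, Lyl1, Lmo2, Fli1 and Erg, summed to 51.81 and 63.23 CPM in iMac, 41.77 and 35.34 CPM in MCC, and 76.03 and 71.28 CPM in MEF. Different genes made up these sums. Egfl7, at 33.0 and 46.6 CPM, was most of it in iMac. In MEF most was Emcn, at 23.8 and 30.8 CPM, and Flt1, at 34.6 and 14.7 CPM. Vwf, Pecam1, Tie1 and Egfl7 were called higher than in MEF in both groups, and Tek, Esam, Flt1, Emcn and Plvap lower. Cdh5 was called lower in iMac only and Sox7 in MCC only.

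The genes most alike in pattern were found by the largest difference in log2 CPM, centred on the mean, over the 6 libraries. For Ikzf1 they were Was, Lcp1 and Nckap1l, none more than 0.288 away in any library. For Fli1 they included Hcst, at 0.197, and Fcna, at 0.280, and for Lyl1 AI662270, Pik3cg and Naip2, within 0.431. Runx1 had the closest matches, Phldb3 at 0.097 and Pip4k2a at 0.127, and Gata2 the loosest, Ccbe1 at 0.527.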

How the data were processed

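RNA was sequenced from 6 libraries, 2 each of iMac, MCC and MEF. The authors deposited raw counts of reads per gene, made with STAR against mm10 and with featureCounts, per the submitters' processing notes; the sources used here give no annotation, strand setting or handling of multiply mapping reads. Counts were used as deposited.

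The test was the two-sided quasi-likelihood test of edgeR 4.0.16 (R 4.3.3) after filterByExpr and TMM scaling, with a single group term over the 6 libraries, adjusted by the Benjamini-Hochberg method at 0.05. The filter removed 11832 genes. CPM uses TMM-scaled totals, and lengths are exon unions of GENCODE mouse release 21. Standard errors are the log2 fold change divided by the root of F; the prior count was 0.125. A fold against a group without counts is a bound against 3 counts over the group, and it leaves out counting error in the other group. Intervals are exact binomial and cover counting error only. Alternatives were median-ratio scaling, DESeq2 1.42.0, limma-voom (limma 3.58.1), no filter, 5 CPM in 2 libraries, a replicate block, a fit of only the groups compared and leaving out each library, where a lone library is assumed to vary like the others. The pipeline was also run on simulated data in which few genes changed, only in iMac, with low-count genes left out. That run does not check calls at low counts, or the scaling where most genes differ between groups. The 10 genes and the lists were chosen with earlier results of these data known. The naming rule took all 10 genes, at most 4 genes per list by fold change in iMac against MEF and then level, and set partners and paralogs. Hhex, Lmo4, Tcf4, Nfix, the genes sharing bases with members and the genes at 0 were named with their values known. So were further genes of the lists, named because they were called or made up much of a sum. Some genes picked by the rule are left out. Promoter windows are from RefSeq, with 15 windows for 8 of the 10 genes. Figures used Python 3.11.15 and matplotlib 3.10.9.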

Additional observations from a re-analysis of the deposited data

How the results depend on the processing

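Of the fold changes of the 8 tested factors recomputed under the alternatives, 286 kept direction and side of the threshold, 12 newly passed it, 6 no longer passed it and 3 reversed; the cause was not tested. The reversals were small or rested on few counts, all for iMac against MCC: Ikzf1 at -0.060 without the first MCC library and -0.025 without the second MEF library (range -0.060 to 0.089 with a library left out), and Myb at 2.39 without the second MCC library (range -4.37 to 2.39). For iMac against MCC the factors called were 3 with DESeq2, 1 with limma-voom, 2 in the fit of only the groups compared and 0 to 1 with a library left out. Over the whole table that comparison had 2722 calls with DESeq2, 146 with limma-voom, 89 without the filter, 1364 in the fit of only the groups compared and 0 to 1202 with a library left out, the highest without the second MCC library. With a library left out, whole-table calls ran from 5173 to 10695 for iMac against MEF and from 7194 to 8672 for MCC against MEF, and the factors called from 6 to 8 in both. The labels do not say whether libraries with the same replicate number share a culture or a batch. Over 18613 genes, same-numbered libraries deviated together with r = 0.0023 for iMac and MCC and -0.0069 for iMac and MEF. For MCC and MEF r was 0.1309. With 2 libraries in each group, these values cannot decide whether the libraries were paired. With the replicate block, the calls were 0 for iMac against MCC, 9908 for iMac against MEF and 9022 for MCC against MEF. There Myb was called for MCC against MEF at -3.79 (edgeR, Benjamini-Hochberg adjusted p = 0.0298). Depth limits what can be said of Gfi1 and, outside MEF, of Erg, Myb and Gata2, which had few counts in most libraries. The 2 libraries of a group also differed for Gata2 in MCC, at 83 and 4 counts. They differed likewise in MEF for Erg, at 71 and 2 counts, and for Myb, at 15 and 49 counts.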

Other observations

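Genes described as direct targets of these factors were split in direction. Of 28 such genes with a row, 20 were tested. In iMac 8 were higher and 8 lower than in MEF, and in MCC 8 were higher and 7 lower. Median log2 fold changes were 0.29 and 0.56. Beside these, 25.1% of all genes tested were higher and 32.4% lower in iMac, and 23.4% and 29.6% in MCC. Kit, Itga2b, Bcl2, Id1, Cdkn1a, Csf1 and Mycn were lower in both groups, and Egr1 in iMac only. Among the targets higher than in MEF were genes of the myeloid line. Spi1, which encodes PU.1, had 338 ± 43.0 CPM in iMac, 338 ± 47.1 CPM in MCC and 0.0129 ± 0.0182 CPM in MEF, and the macrophage growth factor receptor Csf1r had 2809.8 ± 159 CPM in iMac, 2019 ± 19.9 CPM in MCC and 0.435 ± 0.0404 CPM in MEF. Csf3r, the receptor for granulocyte colony-stimulating factor, had 110.2 ± 1.5 CPM in iMac and 68.5 ± 10.7 CPM in MCC, against 0.0400 ± 0.0201 CPM in MEF. Il7r had 62.5 ± 7.23 CPM in iMac and 51.6 ± 1.19 CPM in MCC, and no counts in MEF.

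Epor, the erythropoietin receptor, was the one erythroid gene above 1 CPM. It had 11.9 ± 0.464 CPM in iMac, 5.09 ± 1.09 CPM in MCC and 0.739 ± 0.0481 CPM in MEF, and was higher than in MEF by 4.01 ± 0.27 (SE) in iMac and by 2.78 ± 0.26 in MCC on the log2 scale (edgeR, Benjamini-Hochberg adjusted p = 0.000629 and 0.00180). Pf4, a platelet chemokine, had 276 ± 15.9 CPM in iMac and 181 ± 4.25 CPM in MCC, against 0.0400 ± 0.0201 CPM in MEF.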
